A study of Mus musculus with 2 samples.

Results

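Interferon regulatory factors are transcription factors that bind DNA through a conserved N-terminal domain and control interferon genes and the genes that interferons induce. The 8 members examined were Irf1, Irf2, Irf3, Irf4, Irf5, Irf7, Irf8 and Irf9, chosen by gene name among the 55414 genes of the deposited expression table. They were compared between 2 RNA sequencing libraries of NHOS, a mouse osteosarcoma cell line: 1 from mock-transfected cells (NHOS-mock) and 1 from cells transfected with IL10RB (NHOS-TR), a receptor chain for interleukin-10 and several of its relatives, interferon-lambda among them. Both cultures grew in DMEM with 10% serum and 1 mg/ml G418. The labels state neither the species of the construct nor whether the transfectant was a clone. With 1 library per group there was no test, no p-value and no SD between replicates, and every difference below is between 2 libraries.

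Irf3 and Irf7 are held inactive in the cytoplasm until the kinases TBK1 and IKK-epsilon phosphorylate them downstream of nucleic acid sensors, after which they enter the nucleus and switch on type I interferon genes. Irf9 is the DNA-binding part of the complex with STAT2 that type I interferon assembles on interferon-stimulated response elements (ISREs), and that complex raises Irf7 in turn. Irf1 is induced by interferon-gamma and drives antigen presentation genes, and Irf2 binds the same elements and can oppose it. Irf4 and Irf8 act mainly in lymphoid and myeloid cells.

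The mock library held 18766040 estimated counts and the transfectant 23898112. Levels are given as CPM, which are counts scaled to a common library size, with exact Poisson 95% intervals, and folds are ratios of CPM with exact conditional 95% intervals. These intervals cover counting error only. Il10rb, the mouse gene for this receptor chain, stood at 26.2 CPM (mock) and 67.5 CPM (transfectant). The levels were 2.57-fold apart (2.32 to 2.85) in the direction of the labels. That difference was not extreme, at rank 1574 from the top among the 11952 genes that reached 50 counts in either library. Whether the Il10rb reads came from the construct was not tested. All 9 osteoblast lineage markers had at least 50 counts in a library, among them Runx2, the master regulator of the lineage, at 103 and 136 CPM and the collagen gene Col1a1 at 969 and 1279 CPM. In the transfectant 3 of the 9 exceeded mock by 2-fold or more and 0 were lower by that much. The 3 were the matrix protein genes Ibsp (8.86-fold), Bglap (5.64-fold) and Spp1 (4.05-fold), and the median log2 fold was 0.40. By direction alone 7 were higher and 2 lower, namely Alpl at a ratio of 0.707 (0.697 to 0.717) and Sp7 at 0.907 (0.867 to 0.950). Col1a2 was level, at 1.00 (0.992 to 1.01). For comparison, 19.7% of the 11952 genes past that limit of 50 counts were higher by 2-fold or more and 11.9% lower. Of 5 fibroblast markers 4 had at least 50 counts in a library, and all 4 were higher, from 2.23-fold for Dcn to 18.6-fold for Ly6c1, with a summed level of 33.2 CPM (mock) and 189 CPM (transfectant), while Thy1 had 1 and 0 counts. The part of these markers in the differences of the Irf genes and their targets was not tested.

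Promoter windows from RefSeq (GRCm38.p6, 250 bases before to 50 after an annotated start) were found for 8 of 8 members, in 11 windows. They were searched on both strands for an ISRE core (GAAANNGAAA), a gamma-activated site core, the element that STAT dimers bind (TTCNNNGAA), and a kappa-B core (GGGANNNNCC). Of the 32851 promoter windows of that table, 3.44% held the first, 8.30% the second and 20.7% the third. The windows of Irf1, Irf2, Irf3 and Irf7 are printed because they belong to the pair Irf1 and Irf2, which differed in opposite directions, and to the members with the highest folds. Capitals mark matches, and the sequences read 5′ to 3′ on the strand of the gene.
Irf1, chr11:53769764-53770063, plus strand: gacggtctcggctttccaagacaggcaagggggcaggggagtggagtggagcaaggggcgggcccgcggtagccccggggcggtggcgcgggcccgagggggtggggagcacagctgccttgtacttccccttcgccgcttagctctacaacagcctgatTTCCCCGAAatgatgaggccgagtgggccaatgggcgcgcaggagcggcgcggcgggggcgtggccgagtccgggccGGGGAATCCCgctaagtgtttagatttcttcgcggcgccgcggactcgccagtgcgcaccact
Irf2, chr8:46739495-46739794, plus strand: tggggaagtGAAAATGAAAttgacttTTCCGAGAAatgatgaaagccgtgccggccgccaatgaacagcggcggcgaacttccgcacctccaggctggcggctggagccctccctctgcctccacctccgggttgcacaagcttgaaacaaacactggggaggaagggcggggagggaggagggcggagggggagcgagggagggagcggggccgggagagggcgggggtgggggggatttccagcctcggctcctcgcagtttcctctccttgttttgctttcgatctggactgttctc
Irf3, chr7:44997398-44997697, plus strand: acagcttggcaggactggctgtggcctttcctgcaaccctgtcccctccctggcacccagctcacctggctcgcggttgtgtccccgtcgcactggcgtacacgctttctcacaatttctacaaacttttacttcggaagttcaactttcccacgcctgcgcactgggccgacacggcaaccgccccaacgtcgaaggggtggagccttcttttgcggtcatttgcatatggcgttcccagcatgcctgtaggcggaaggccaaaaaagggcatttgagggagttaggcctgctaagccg
Irf7, chr7:141266375-141266674, minus strand: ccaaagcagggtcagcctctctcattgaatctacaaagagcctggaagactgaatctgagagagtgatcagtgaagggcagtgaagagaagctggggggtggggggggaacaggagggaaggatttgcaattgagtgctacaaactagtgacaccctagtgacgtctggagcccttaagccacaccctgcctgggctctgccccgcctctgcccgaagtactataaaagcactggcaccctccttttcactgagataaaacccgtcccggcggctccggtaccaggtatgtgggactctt

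The Irf1 window held a gamma-activated site core (TTCCCCGAA) that starts 90 bases before the annotated start. It also held a kappa-B core on the opposite strand, 13 bases before that start (GGGGAATCCC in the letters of the gene's strand). The other annotated Irf1 start held no match. The Irf2 window alone held an ISRE core (GAAAATGAAA, 241 bases before the start), together with a gamma-activated site core (TTCCGAGAA) at 224 bases. No match to these letters lay in the windows of Irf3, Irf5, Irf7 or Irf9, and that says nothing about sites with other letters or outside the windows. The first Irf8 window held 2 gamma-activated site cores (TTCTCGGAA and TTCAGAGAA) and 2 kappa-B cores, and the Irf4 window held 1 kappa-B core (GGGACAGCCC). Across the family, 1 of 11 windows held an ISRE core, 3 a gamma-activated site core and 3 a kappa-B core. A match is a description of the letters, not a bound site.

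In the transfectant library Irf7, Irf3 and Irf1 exceeded mock by at least 2-fold, Irf9 was higher by less than 2-fold, Irf2 and Irf5 were lower by less than 2-fold, and Irf4 and Irf8 were near the limit of detection. The floor for counting a gene as higher or lower was 50 counts in either library. A call needed 2-fold on the scale of log2(CPM + 0.5), on which low genes appear closer than they are. Of the 8 members, 6 passed that floor, and those 6 had at least 101 counts in both libraries. Of these, 3 were called higher and 0 lower, where 19.7% of the 11952 genes past the floor were called higher and 11.9% lower. The median log2 fold was 0.91 for the 6 members and 0.07 for all genes past the floor. Single members ran from -0.60 (Irf2) to 2.39 (Irf7), so a median of 6 genes is loosely fixed.

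**Figure D1:**
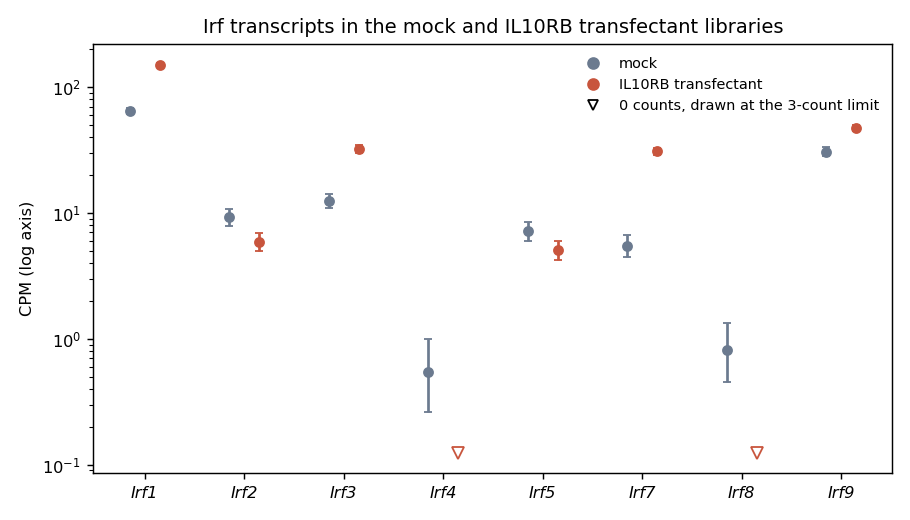
Level of each Irf transcript in CPM (log axis) in the mock and the IL10RB transfectant library, with exact Poisson 95% intervals as bars. Irf1, Irf3, Irf7 and Irf9 lie higher in the transfectant, and Irf4 and Irf8, at 0 counts there, are drawn at the limit of 3 counts.

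Irf7, which amplifies the type I interferon response, differed most among the 6 members past the floor. Its 101 counts in mock and 750 after transfection were 5.47 CPM (4.46 to 6.65) and 30.9 CPM (28.7 to 33.1). That is a 5.64-fold difference (4.57 to 7.01), which placed Irf7 at rank 487 from the top among 11952 genes. The deposited TPM values, which are scaled for transcript length, were 3.71 and 23.2. The gene (ENSMUSG00000025498.16) lies on the minus strand of chromosome 7 from 140842619 to 140846394, by the table's own coordinates, for which the sources used here give no genome build.

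Irf3, the factor that starts interferon-beta transcription after sensing of foreign nucleic acid, had 229 counts (mock) and 783 counts (transfectant). Its level was 12.4 CPM (10.9 to 14.1) and 32.2 CPM (30.0 to 34.5), 2.59-fold higher (2.24 to 3.02), at rank 1581. TPM values were 13.0 and 33.1. The gene (ENSMUSG00000003184.16) lies on the plus strand of chromosome 7, between 44647072 and 44652272 in the table. Its own transcript is usually present before any stimulus, and it was past the floor in both libraries here.

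Irf1 was the most abundant member in both libraries. It had 1199 counts (mock) and 3618 counts (transfectant), or 65.0 CPM (61.4 to 68.8) and 149 CPM (144 to 154), 2.29-fold higher (2.14 to 2.45), at rank 1895. Irf2, which competes with Irf1 for the same elements, went the other way, with 170 and 144 counts. Its 2 levels were 9.21 CPM (7.88 to 10.7) and 5.92 CPM (5.00 to 6.97), a ratio of 0.643 (0.511 to 0.807) that did not reach 2-fold. On the TPM scale, Irf1 stood 5.16-fold above Irf2 in mock and 15.3-fold above it in the transfectant. In the table Irf1 (ENSMUSG00000018899.18) lies on the plus strand of chromosome 11, between 53660841 and 53669200, and Irf2 (ENSMUSG00000031627.10) on the plus strand of chromosome 8, between 47192767 and 47300493.

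Irf9, which binds DNA in a complex with STAT2, had 565 and 1154 counts. Its level was 30.6 CPM (28.2 to 33.3) and 47.5 CPM (44.8 to 50.3), a ratio of 1.55 (1.40 to 1.72) that did not reach 2-fold. The counting interval lay above 1, but such an interval does not hold the spread between cultures, and 45.7% of all genes past the floor had an interval wholly above 1 and 40.4% one wholly below 1. The same holds for Irf2 and Irf5, whose intervals lay below 1. The gene (ENSMUSG00000002325.16) lies on the plus strand of chromosome 14, between 55841028 and 55847487 in the table. Its partner Stat2 stood on the same side, at a ratio of 1.73 (1.52 to 1.97).

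**Figure D2:**
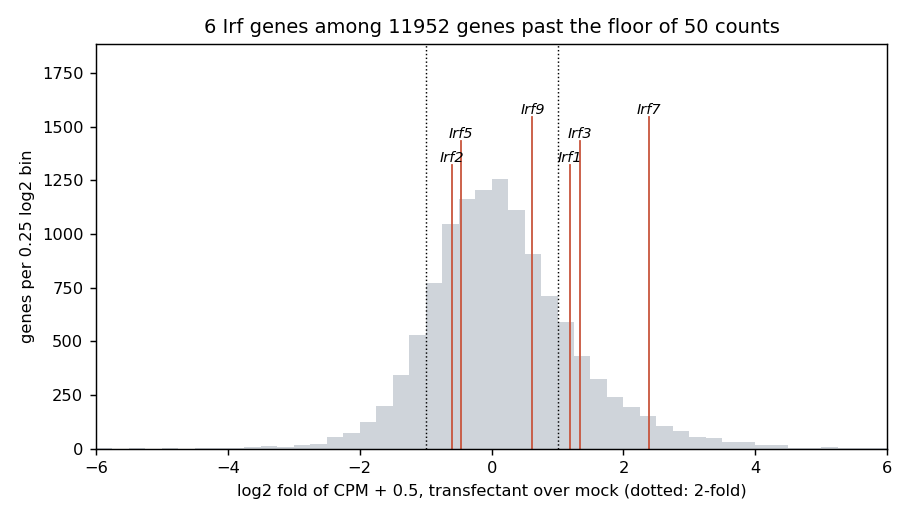
Histogram of the log2 fold of CPM + 0.5, transfectant over mock, for the 11952 genes past the floor of 50 counts, drawn from -6 to 6, with red lines at the 6 Irf genes and dotted lines at 2-fold. Irf1, Irf3 and Irf7 lie beyond 2-fold at log2 folds of 1.19, 1.34 and 2.39, and Irf2, Irf5 and Irf9 within it.

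Irf5, which acts downstream of Toll-like receptors and MYD88, gave different answers on the count and TPM scales. Its counts were close, 133 in mock and 123 in the transfectant, or 7.21 CPM (6.04 to 8.54) and 5.06 CPM (4.21 to 6.04), a ratio of 0.702 (0.545 to 0.904). Its deposited TPM was 8.42 in mock and 2.98 in the transfectant, 2.82-fold lower. Within a library, count per TPM is proportional to the transcript length that the authors' pipeline used for a gene. For Irf5 that quantity was 15.8 in mock and 41.3 in the transfectant. After setting the median gene at 1, its shift was 1.99, and 99.8% of the 10612 genes past 50 counts in each library had a smaller shift.

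Only 1.06% of those genes had a shift of 1.5 or more, and the central 95% ran from 0.733 to 1.32. Irf1, Irf3 and Irf9 had shifts of 1.03, 1.03 and 0.997, and Irf7 and Irf2 of 0.905 and 0.858. The table lists 6 transcripts for Irf5 (ENSMUSG00000029771.13, plus strand of chromosome 6, 29526624 to 29541870), and their lengths in GENCODE M21 run from 350 to 2241 bases. The deposited table has no counts per transcript, so the transcripts that carried the Irf5 reads in each library were not analysed here. Irf5 also overlaps Tnpo3 on the opposite strand by 1045 bases, and Tnpo3 was far more abundant, at 177 and 132 CPM. The deposited counts were 133.04 (mock) and 123.29 (transfectant) for Irf5, and 3271.96 and 3204.71 for Tnpo3. Their fractions add up to a whole number in each library, as arises when reads are split between overlapping genes. The strand setting of the counting was not stated, and how many Tnpo3 reads entered the Irf5 values was not tested.

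**Figure D3:**
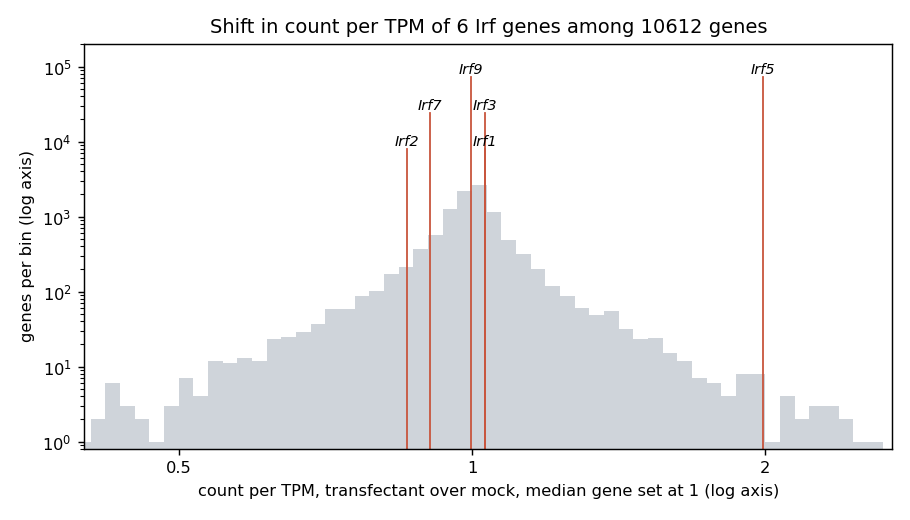
Histogram of count per TPM, transfectant over mock, with the median gene set at 1 (both axes log), for the 10612 genes past 50 counts in each library; red lines mark the 6 Irf genes. Irf5 stands at 1.99 in the upper tail, and the other members lie between 0.858 and 1.03.

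Irf4 and Irf8, the factors of lymphoid and myeloid cells, had 10 and 15 counts in mock, and 0 counts each in the transfectant. In mock these are 0.542 CPM (0.260 to 0.997) for Irf4 and 0.813 CPM (0.455 to 1.34) for Irf8, and a count of 0 allows up to 0.123 CPM in the transfectant, taken as 3 counts in that library. Against the limit of 3 counts, the mock level was 4.39-fold higher for Irf4 and 6.59-fold higher for Irf8. These are not minimum folds. With the counting error of the mock counts included, the exact conditional interval reached down to 2.95-fold and 4.73-fold. Counts of this size were often at 0 in the other library. Of 1257 genes with 10 to 15 counts in mock, 397 (31.6%) were at 0 in the transfectant. In the other direction, 156 of 888 genes with 10 to 15 counts in the transfectant (17.6%) were at 0 in mock. In the table Irf4 (ENSMUSG00000021356.11) lies on the plus strand of chromosome 13, between 30933209 and 30950959, and Irf8 (ENSMUSG00000041515.11) on the plus strand of chromosome 8, between 121463097 and 121483433.

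Markers of blood cells were examined beside these members. Of 13 haematopoietic and macrophage markers, 5 passed the floor, 3 higher and 1 lower, where 19.7% of all genes past the floor were higher and 11.9% lower. The summed level of the 13 was 13.1 CPM (mock) and 48.2 CPM (transfectant). Ptprc, found on all leukocytes, had 27 and 0 counts, the T cell gene Cd3e 13 and 0, and the myeloid genes Itgam and Tyrobp had 0 in both. Other markers were higher in the transfectant: the macrophage lysozyme Lyz2 had 5 and 626 counts, the macrophage gene Cd68 12 and 150, the leukocyte gene Coro1a 14 and 55, and Fcer1g and Laptm5, both under the floor, 6 and 36 and 14 and 35. Cd14 had 87 and 240 counts, within 2-fold on the call scale, and Csf1r, the receptor for a macrophage growth factor, was the 1 called lower, with 57 and 24 counts. Of 4 dendritic cell markers none passed the floor, with Xcr1 at 17 and 0 counts, Flt3 at 0 and 5, and Itgax and Siglech at 0 in both. In bulk RNA, fewer cells of a type and less RNA per cell cannot be told apart, and the part of blood cells in the Irf4 and Irf8 counts was not tested.

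Among the partners and regulators of Irf4 and Irf8 in blood cells, some were near 0 and others passed the floor. Of 10 such genes 4 passed the floor, with 2 higher and 1 lower (median log2 fold 0.25). In the whole table, 19.7% of genes past the floor were higher and 11.9% lower (median 0.07). Spi1, which encodes PU.1, the main partner of Irf4 and Irf8 on DNA, had 3 and 0 counts, Ikzf1 2 and 0, Spib and Cebpe 1 and 0, and Prdm1 0 in both. Batf, an AP-1 family protein that binds with Irf4 and Irf8 in lymphocytes, was present and differed, at 36 counts against 606, 12.8-fold higher (9.12 to 18.4). Its relative Batf2 had 0 and 41 counts, whereas Batf3 was at a ratio of 0.665 (0.521 to 0.849). Id2 was 2.07-fold higher and the repressor Bcl6 2.60-fold lower (2.18 to 3.11).

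Ordered by TPM, the scale on which genes can be compared with each other, the mock library ran Irf1 (39.2), Irf9 (15.7), Irf3 (13.0), Irf5 (8.42), Irf2 (7.61), Irf7 (3.71), Irf8 (0.286) and Irf4 (0.139). The counting intervals of Irf9 and Irf3, of Irf5 and Irf2, and of Irf8 and Irf4 overlapped, so those neighbours were not separated at this depth. In the transfectant the order was Irf1 (87.9), Irf3 (33.1), Irf9 (24.5), Irf7 (23.2), Irf2 (5.73) and Irf5 (2.98). Here only Irf9 and Irf7 overlapped among neighbours. The place of Irf5 rests on its deposited TPM, and the counting intervals do not cover its shift of 1.99 in count per TPM.

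The summed TPM of the 8 members was 88.1 in mock and 177 in the transfectant, a ratio of 2.01. Irf1 made up 44.5% of that sum in mock and 49.5% in the transfectant. The share of Irf7 was 4.21% and 13.1%, and that of Irf3 14.8% and 18.7%. The shares of Irf9 (17.8% and 13.8%), Irf2 (8.64% and 3.23%) and Irf5 (9.56% and 1.68%) were smaller in the transfectant. For Irf5 the share carries the same limit, since its counts were much closer than its TPM values. Irf7 stood at 0.285 of the TPM of Irf3 in mock and 0.701 in the transfectant, and at 0.237 and 0.947 of the TPM of Irf9.

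**Figure D4:**
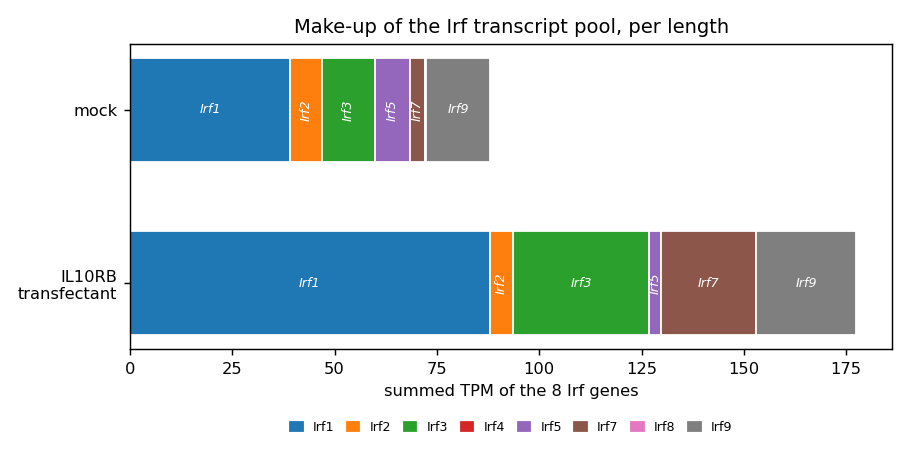
Deposited TPM of the Irf genes stacked for each library, so that the length of a bar is the summed TPM of the 8 members. The bar reaches 88.1 in mock and 177 in the transfectant, with wider Irf1, Irf3, Irf7 and Irf9 segments and narrower Irf2 and Irf5 segments in the latter.

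Genes next to the members were examined because reads of overlapping genes can be shared. Within 20 kb the table lists 30 other genes, of which 12 passed the floor, 4 of them at least 2-fold higher and 0 lower (median log2 fold 0.51). Over all genes past the floor, 19.7% were higher and 11.9% lower (median 0.07). Bcl2l12 overlaps Irf3 by 1065 bases on the opposite strand and was 3.37-fold higher (2.34 to 4.99) from 36 and 160 counts, while Scaf1, which ends 100 bases past Irf3, was at a ratio of 0.963. Phrf1 overlaps Irf7 by 45 bases and was lower, at a ratio of 0.621 (0.580 to 0.666). Rnf31, which overlaps Irf9 by 123 bases on the same strand, was 1.5-fold higher (1.33 to 1.70). Gm17334 lies across 3144 bases of Irf1 on the opposite strand and had 33 and 64 counts, against 1199 and 3618 for Irf1. The 3 genes listed inside Irf2 had at most 1 count. The deposited counts of Irf1 and Irf5 were fractional, as arises when reads are shared, and those of the other 6 members were whole numbers. They were 1198.74 (mock) and 3617.67 (transfectant) for Irf1, and 33.26 and 64.33 for Gm17334. The fractions of this pair, like those of Irf5 and Tnpo3, add up to a whole number in each library.

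The sensors, adaptors and kinases upstream of Irf3, Irf5 and Irf7 included higher and lower genes. Of 24 such genes 19 passed the floor, 7 higher and 3 lower, with a median log2 fold of 0.20, where 19.7% of all genes past the floor were higher and 11.9% lower. Dhx58, which encodes the RIG-I-like receptor LGP2, was 11.3-fold higher (6.99 to 19.3), the double-stranded RNA receptor gene Tlr3 4.29-fold (2.99 to 6.34) and Sting1, the adaptor of cytosolic DNA sensing, 3.62-fold (3.24 to 4.06). The other higher genes were chosen for naming after their values were seen: Ikbke, which encodes IKK-epsilon, at 2.82-fold, Irak4 at 2.49-fold, Ddx58, which encodes RIG-I, at 2.15-fold and Tlr4 at 2.11-fold. The ubiquitin ligase Traf6 was 3.55-fold lower (3.17 to 3.97), and Traf3 (2.28-fold) and the DNA sensor Cgas (2.23-fold), also named after their values were seen, were the other lower genes. Tbk1, the kinase shared by Irf3 and Irf7, was at a ratio of 0.825 (0.769 to 0.884), and the adaptor Mavs at 1.01 (0.933 to 1.10), both named after their values were seen. Tlr7, Tlr9 and Ticam2 had 0 counts in both libraries.

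Interferon transcripts themselves were scarcely detected. Of 21 interferon ligand genes none passed the floor and 17 had 0 counts in both libraries. Ifnb1, the interferon-beta gene that Irf3 and Irf7 activate, had 2 and 0 counts, Ifna1 and Ifnz 1 and 0, and Ifne 0 and 1. At this depth a count of 0 allows up to 0.163 CPM (mock) and 0.123 CPM (transfectant). Of 11 genes for interferon receptor chains, their kinases and the STAT partners of Irf9, 10 passed the floor, 3 higher and 0 lower (median log2 fold 0.41). Across all genes past the floor, 19.7% were higher and 11.9% lower (median 0.07). Il10rb and Ifngr2, the signal-transducing chain of the interferon-gamma receptor, at 2.47-fold (2.26 to 2.71), were among the higher genes. Ifnlr1, which pairs with Il10rb in the interferon-lambda receptor, had 4 and 0 counts.

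Targets of Irf1 and Irf2, taken from a list of textbook genes, were mostly higher. Of 28 such genes 22 passed the floor, 18 higher and 1 lower, with a median log2 fold of 1.80. Among all genes past the floor, 19.7% were higher and 11.9% lower (median 0.07). The 4 with the largest differences on the scale of log2(CPM + 0.5) were the guanylate-binding protein Gbp2 (13.8-fold, 9.07 to 22.0), the guanosine triphosphatase Igtp, the immunoproteasome subunit Psmb8 and the adhesion molecule Vcam1, all higher. The single lower gene was Cd274, which encodes PD-L1, at 4.67-fold. Nlrc5, the class I transactivator that Irf1 induces, was 2.93-fold higher (2.31 to 3.75), while Ciita, its class II counterpart, had 10 and 12 counts and Ido1 had 0 in both. B2m was at a ratio of 1.03 and Il15 at 0.525 (0.415 to 0.663). Nlrc5, Ciita, B2m, Il15 and Cd274 were chosen for naming after their values were seen. Psme2 is on this list and lies within 20 kb of Irf9, and was 3.44-fold higher (3.32 to 3.57).

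Genes with an ISRE that Irf9, Irf3 or Irf7 can drive were also mostly higher. Of 36 such genes 31 passed the floor, 22 higher and 2 lower, with a median log2 fold of 1.38. The shares over all genes past the floor were 19.7% higher and 11.9% lower (median 0.07). Ifit3b had 4 and 268 counts, and Oas1g, an oligoadenylate synthetase gene, was 19.6-fold higher (12.5 to 32.3). Oas1a was 9.26-fold higher (7.63 to 11.3), and Lgals3bp completed the 4 with the largest differences on the scale of log2(CPM + 0.5). Oas1b, named after its values were seen, had 1 and 73 counts and lay outside those 4 on that scale. Oas2 had 0 counts against 41 and Mx1 0 against 4. The 2 lower genes, named after their values were seen, were Ccl5 (6.70-fold, 4.62 to 9.99), a chemokine that Irf3 and Irf7 activate, and Oasl1 (2.37-fold, 2.10 to 2.67), which in mouse limits translation of Irf7. Several of these genes have close copies, and the split of reads among them is uncertain. An excess of higher interferon-stimulated genes in these libraries was already known when the lists were drawn up, so neither count is independent evidence of its direction.

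**Figure D5:**
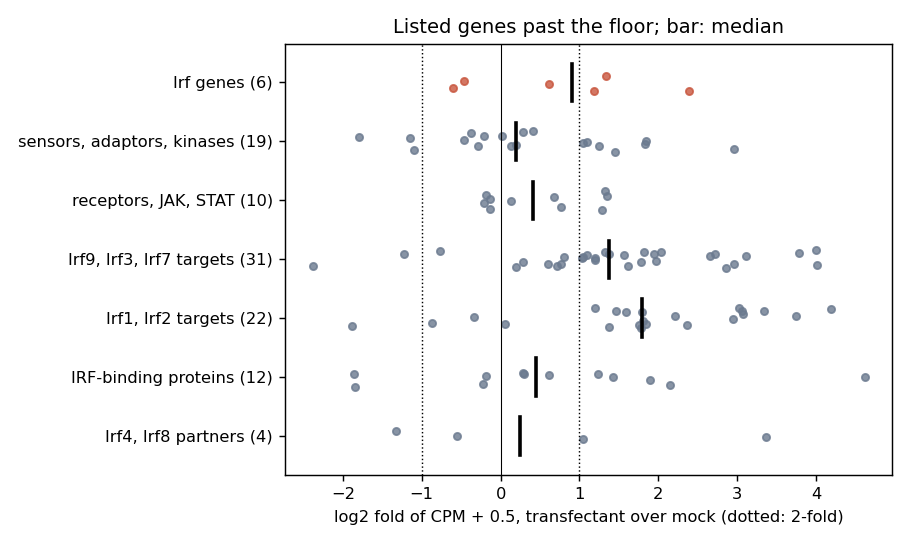
Log2 fold of CPM + 0.5, transfectant over mock, for every listed gene past the floor, 1 point per gene and the median as a bar, with dotted lines at 2-fold and the number of genes in brackets. The median is 0.91 for the Irf genes, 1.80 for Irf1 and Irf2 targets, 1.38 for Irf9, Irf3 and Irf7 targets, and 0.20 for upstream sensors, adaptors and kinases.

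Proteins that bind or modify IRF proteins differed among themselves. All 12 listed genes passed the floor, 5 higher and 2 lower, with a median log2 fold of 0.45. Beside them, 19.7% of all genes past the floor were higher and 11.9% lower (median 0.07). Trim30a, whose best known targets are TAB2 and TAB3, had 2 and 352 counts. The interferon-induced gene Nmi was 4.94-fold higher (3.80 to 6.52) and Trim21, a ubiquitin ligase that acts on several IRF proteins, 4.17-fold higher (3.15 to 5.62). The corepressor genes Irf2bpl (3.68-fold, 3.36 to 4.04) and Irf2bp2 (3.58-fold, 3.42 to 3.75) were the 2 lower genes, the latter named after its values were seen, from levels of 97.4 and 378 CPM in mock. Their relative Irf2bp1 was at a ratio of 1.23 (1.10 to 1.37). The acetyltransferase genes Crebbp and Ep300, coactivators of Irf3, were at 0.876 and 0.859, and these 3 were likewise named after their values were seen.

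Among Reactome pathways named for interferon or IRF in the deposited table, the 5 with at least 5 genes past the floor had medians nearer to 0 than the target lists. Of the others, 1 held 2 genes past the floor, and 4 held 1, Irf7 itself, so no median is read from them. For all genes past the floor the shares were 19.7% higher and 11.9% lower. Of 6 genes for activation of IRF3 and IRF7 by TBK1 and IKK-epsilon, all past the floor, 2 were higher and 1 lower (median log2 fold 0.46). Of 13 genes past the floor for induction of interferon by the RIG-I-like receptors, 4 were higher and 1 lower (median 0.49). Interferon signalling had 10 higher and 3 lower of 34 (median 0.12), its interferon-alpha and interferon-beta branch 3 higher and 1 lower of 11 (median 0.24), and its interferon-gamma branch 2 higher and 1 lower of 8 (median -0.15). Irf7 is annotated to the first 2 of these pathways and Irf9 to interferon signalling and its interferon-alpha and interferon-beta branch.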

How the data were processed

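Per the labels' protocols, an RNeasy kit yielded the RNA and the SMART-Seq v4 kit the cDNA libraries. DRAGEN is named in the submitters' processing notes. The sources used here give neither its version nor the genome build or strand setting. The authors deposited estimated counts per gene, with fractions in 11.0% of genes in each library, and TPM values scaled for gene length and depth, per the file headers. Only 1494 of 52081 gene identifiers shared with GENCODE M21 (GRCm38) had the same start and end, so coordinates are printed as the table gives them, and only promoter windows carry GRCm38.p6 coordinates.

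Counts were rounded and scaled with TMM factors (0.983 and 1.02) from edgeR 4.0.16 in R 4.3.3. DESeq2 1.42.0 supplied alternative size factors, and no test was run with either package. A single count corresponded to 0.0542 CPM (mock) or 0.0411 CPM (transfectant). No molecular identifiers were used in these files, so reads are not independent molecules. Python 3.11.15, numpy 2.4.6, scipy 1.17.1 and pandas 2.3.3 did the rest. The procedure was tested on simulated Poisson counts. These hold no spread between cultures, so that test does not measure how reliable the calls are.

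The members, the 8 gene lists (144 different genes, 6 of them on more than 1 list), the floor and the thresholds were chosen with earlier results of these data known. Named genes were all members, Il10rb, Stat2, per list the 4 genes farthest from a log2 fold of 0, listed genes at 0 counts in a library and neighbours within 20 kb. Further names were picked with their values in view, and not every gene the rule names is reported here. Alternatives were 3 other scalings, other pseudocounts, floors and folds, calls by the counting interval, deposited TPM and protein coding genes. The comparison of count per TPM and the share of low genes at 0 were added after seeing the data. Protein sequences were not used here.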

Additional observations from a re-analysis of the deposited data

How the results depend on the processing

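Only the other scalings, the other pseudocounts and the deposited TPM can change a member's log2 fold, and the remaining alternatives leave it as it is. Under those that can, it ran from 2.14 to 2.49 for Irf7, 1.22 to 1.39 for Irf3 and 1.07 to 1.24 for Irf1. The range was 0.51 to 0.67 for Irf9, -0.71 to -0.38 for Irf2 and -1.36 to -0.38 for Irf5, with no change of direction. The value of -1.36 for Irf5 came from the deposited TPM, the only setting with a 2-fold call that put it past 2-fold, so that 1 member was then lower. Upper quartile scaling moved the median of all genes from 0.07 to -0.04 and left 1 higher gene among blood cell partners. Without a floor, 2316 genes of the table and 2 members (Irf4 and Irf8) were lower, because low genes are then counted.

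At 1.5-fold, 3666 genes were higher and 2853 lower in the table, 1 member (Irf2) was lower, 5 genes of the receptor, kinase and STAT list were higher, and 2 Irf1 and Irf2 targets were lower. At 4-fold, 772 were higher and 219 lower in the table, and Irf7 was the 1 member still higher. That threshold left 1 higher and 0 lower among the upstream genes, 0 higher in the receptor list, 9 higher and 1 lower among Irf9, Irf3 and Irf7 targets, and 9 higher and 0 lower among Irf1 and Irf2 targets. It left 2 higher and 0 lower among IRF-binding proteins and 1 higher and 0 lower among blood cell partners.

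Calls by the counting interval alone gave 5458 higher and 4830 lower in the table, 2 lower members (Irf2 and Irf5), 7 lower upstream genes, 6 higher and 3 lower in the receptor list, and 2 lower Irf1 and Irf2 targets. They gave 8 higher and 4 lower IRF-binding proteins and 2 lower blood cell partners. With a floor of 200 counts, 1 of the Irf9, Irf3 and Irf7 targets and 0 of the Irf1 and Irf2 targets were lower. In the deposited TPM, 1 upstream gene and 2 Irf1 and Irf2 targets were lower. The other 179 counts moved by at most 1.5 times. The median log2 fold of the Irf genes (0.91) ran from 0.08 without a floor, which admits Irf4 and Irf8, to 1.27 with a floor of 200 counts. That of blood cell partners (0.25) changed sign, from -0.15 without a floor to 1.04 with a floor of 200 counts. The median ran from 0.13 to 0.49 for the receptor list, 0.10 to 0.34 for upstream genes, 1.18 to 1.45 for Irf9, Irf3 and Irf7 targets, 1.68 to 1.86 for Irf1 and Irf2 targets and 0.33 to 0.50 for IRF-binding proteins. Interferon ligands have no median because none passed the floor. No paired analysis was possible because there was 1 library of each kind.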
